A study of Mus musculus with 4 samples.

Results

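The genes described here are 10 genes of the heart muscle cell, measured in whole lung of mouse embryos. They encode parts of the cardiac sarcomere (Myh6, Myh7, Myl4, Myl7, Actc1, Tnnt2, Tnni3, Tnnc1), the calcium release channel Ryr2 and the atrial hormone precursor Nppa. Members were all probe sets whose annotated symbol was exactly one of these names, which gave 14 probe sets of 22690 and 10 genes of 12393. The list was chosen because it stood lower in transgenic than in wild-type lung by more than other non-epithelial lists, so its differences between the groups are given as a description, without a test. The arrays held 2 wild-type lungs and 2 lungs carrying the sftpc-nmyc transgene, all titled embryonic day 18. The design text gives a collection time slightly later than that for the transgenic embryos. No such time is listed for the wild-type lungs, so a difference in stage could not be told apart from genotype. The transgene fuses mouse Nmyc1, a growth-promoting transcription factor now named Mycn, to a green fluorescent protein. It is placed behind 3.7 kb of human SFTPC promoter and enhancer, a sequence active in lung epithelium and not in heart muscle. The transgenic embryos were made by injecting DNA into pronuclei of F2 eggs from C57BL/6J and DBA/2J mice, so each may carry its own insertion. The strain of the wild-type lungs is not given in the sources used here, nor is how lungs were separated from the heart. Differences in strain or dissection between the groups, if any, could not be told apart from genotype either. No agent is named for either group.

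Cardiac muscle is not confined to the heart. In the mouse a sleeve of atrial-type heart muscle, continuous with the left atrium, runs along the pulmonary veins into the lung, so whole lung can yield transcripts of these genes. In the sarcomere, myosin heavy chains (Myh6, Myh7) with their light chains (Myl4, Myl7) pull on thin filaments of cardiac actin (Actc1), and the troponin complex on those filaments (Tnnc1, Tnni3, Tnnt2) makes this depend on calcium that Ryr2 releases. Myl4, Myl7 and Nppa are used as atrial markers, whereas Myl2 and Myl3 mark ventricular muscle.

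Promoter windows from RefSeq (build GRCm38.p6) were matched by symbol for all 10 genes. The bases before the annotated start are printed for Actc1 and Myl7, the members with a CArG box, and for Nppa and Myh7 (the first of its 2 windows), whose signals differed least between groups. Capitals mark matches, on either strand, to the motifs searched.
Actc1, chr2:114052876-114053125, minus strand: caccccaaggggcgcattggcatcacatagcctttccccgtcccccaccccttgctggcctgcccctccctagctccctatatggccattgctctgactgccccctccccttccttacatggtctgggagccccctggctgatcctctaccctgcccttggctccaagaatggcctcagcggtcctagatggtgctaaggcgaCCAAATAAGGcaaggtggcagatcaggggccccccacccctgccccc
Myl7, chr11:5898783-5899032, minus strand: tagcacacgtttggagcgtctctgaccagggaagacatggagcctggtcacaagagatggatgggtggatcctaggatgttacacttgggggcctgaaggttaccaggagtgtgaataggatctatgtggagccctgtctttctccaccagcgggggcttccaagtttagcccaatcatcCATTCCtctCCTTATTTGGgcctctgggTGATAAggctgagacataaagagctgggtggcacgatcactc
Nppa, chr4:148000472-148000721, plus strand: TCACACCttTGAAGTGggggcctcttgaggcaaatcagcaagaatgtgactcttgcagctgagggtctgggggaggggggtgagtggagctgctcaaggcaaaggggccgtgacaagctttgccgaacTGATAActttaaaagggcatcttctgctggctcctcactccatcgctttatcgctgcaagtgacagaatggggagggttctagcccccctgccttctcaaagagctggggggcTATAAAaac
Myh7, chr14:54994627-54994876, minus strand: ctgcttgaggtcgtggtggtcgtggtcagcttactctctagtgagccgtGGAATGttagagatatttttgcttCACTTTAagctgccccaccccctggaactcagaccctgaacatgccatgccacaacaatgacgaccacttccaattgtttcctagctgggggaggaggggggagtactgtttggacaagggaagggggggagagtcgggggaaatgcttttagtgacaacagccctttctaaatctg
The motifs were TATAAA, the CArG box bound by SRF, the MEF2 site, CATTCC bound by TEAD factors, TGATAA and AGATAA bound by GATA factors, TNAAGTG bound by NKX2-5 and GGTGTGA bound by T-box factors. Both GATA motifs end in the same letters, GATAA. The search covered 250 bases before and 50 bases after the start. A CArG box began at -47 in Actc1 and at -61 in Myl7. It was found in 1.81% of 27025 genes with a window, and in 1.63% of all 32851 windows. CATTCC was found in 5 of 10 members (Myh6, Myl7, Tnnt2, Tnnc1 and Myh7), against 16.6% of 27025 genes with a window. In Myl7 it began at -70, next to the CArG box. TATAAA was found in Myh6, Actc1 and Nppa, against 15.7% of genes, and it began past the annotated start in Actc1 (at 34) and in Myh6 (at 2). TGATAA was found in Myl7 and Nppa (10.4% of genes), TNAAGTG in Nppa and Myh7 (13.1%), GGTGTGA in Tnni3 and Nppa (4.6%) and AGATAA in Tnnt2 (12.7%). The MEF2 site was found in 0 of 10 members, and in 0.636% of all genes. These matches describe letters only.

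Each probe set has 1 linear intensity, its signal, on every array. Signals were compared after quantile normalization as differences of log2(value + 5), transgenic minus wild type, and that offset understates differences of dim genes. Errors after ± are limma standard errors with n = 2 per group. For Nppa, and for probe sets not chosen to represent their gene, they come from a separate fit to all non-control probe sets, dim ones included. The highest signal of 27 Bacillus control probe sets, 73.4, serves as a guide to background. Arrays of 1 group correlated at r = 0.965 and 0.968 over all probe sets, and those of different groups at 0.922 to 0.933. Mycn was read at 34.7 and 32.1 in wild type and 455.2 and 356 in transgenic lungs by 1 of its 3 probe sets, while another, 1417155_at, went from 78.7 and 63.5 to 25.1 and 27.2. Xist stood at 1707.8 and 1506.1 in wild type and 59.3 and 63.9 in transgenic lungs, and Y-linked Eif2s3y at 3.1 and 0.8 against 58 and 61.7, so sex and genotype cannot be told apart. Of 8 lung epithelial genes checked, none was below the Bacillus guide in wild type, and Sftpc gave 9566.4 and 9545.8. In limma's test, 30.4% of 8675 genes differed between the groups at an adjusted p under 0.05.

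Of the myosin heavy chains, Myh6 was lower in transgenic lung by a wide margin and Myh7 by a narrow one, a contrast that was not tested. Myh6, the fast heavy chain of atria and of adult mouse ventricle, gave 229.5 and 129.8 in wild type and 19.6 and 29.7 in transgenic lungs (1448826_at). That is a log2 difference of -2.54 ± 0.31, with both transgenic lungs below the Bacillus guide. A second Myh6 probe set, 1417729_at, was near background on all arrays, at 9.1 and 17 against 2.6 and 4.1. Myh7, the slow heavy chain of the fetal ventricle, gave 240 and 234.1 in wild type and 200.5 and 131.8 in transgenic lungs, a log2 difference of -0.53 ± 0.21. Its groups did not overlap, but transgenic replicate 1 lay close to both wild-type lungs. The genes are neighbours on chromosome 14 and near-identical copies, so probe sets may share signal. Of those annotated to both genes, and therefore not members, 1448554_s_at gave 237.8 and 141 against 74.8 and 71.5, and 1448827_s_at gave 47.1 and 33.8 against 12.6 and 5.5.

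Both atrial light chains were lower in each transgenic lung than in either wild-type lung. Myl7, the atrial regulatory light chain, gave 720.2 and 500.6 in wild type and 64.6 and 135.7 in transgenic lungs, a log2 difference of -2.59 ± 0.31. Myl4, the atrial essential light chain, gave 438.8 and 265.8 against 58.9 and 76.5, or -2.24 ± 0.25. Transgenic replicate 2 was the higher of its group in both. The other Myl4 probe set, 1457126_at, was below the Bacillus guide on every array (46.3 and 36.3 against 26 and 33) and differed by -0.32 ± 0.29. With the mean over probe sets in place of the probe set with the highest mean, Myl4 stood at -1.28.

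Thin filament genes differed by similar amounts. Actc1, cardiac alpha actin, gave 1091.5 and 589.2 in wild type and 103.5 and 237.7 in transgenic lungs, a log2 difference of -2.32 ± 0.40. The groups did not overlap, although the lungs within each differed widely. Tnnc1, the calcium-binding troponin C of heart and slow muscle, gave 364.9 and 215.5 against 43.6 and 60.4, or -2.31 ± 0.27. Tnni3, the adult cardiac inhibitory troponin, gave 167.6 and 92.7 against 16.1 and 9, or -2.84 ± 0.38. Its transgenic signals were far below the Bacillus guide, where a fold cannot be resolved. Tnnt2, cardiac troponin T, was read by 2 probe sets that gave alike values. Those of 1424967_x_at were 215.1 and 174.1 against 29.6 and 37.7, a difference of -2.31 ± 0.21. Those of 1418726_a_at were 231.6 and 173.7 against 22.7 and 27, or -2.74 ± 0.24.

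The calcium channel and the atrial hormone gave weaker signals. Ryr2 gave 80.7 and 47.6 in wild type and 24.1 and 21 in transgenic lungs on 1450123_at, a log2 difference of -1.21 ± 0.34. Only 1 of these readings exceeded the Bacillus guide. Its other probe set, 1421126_at, gave 34.9 and 12.3 against 0.7 and 26.2, and the groups overlapped. Nppa, which encodes atrial natriuretic peptide, gave 30.6 and 37.3 against 16.5 and 31.4. Its groups overlapped as well, with a log2 difference of -0.34 ± 0.37. Nppa was the 1 member of 10 that did not pass the filter on low signals, and all of its signals were below the Bacillus guide.

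**Figure D1:**
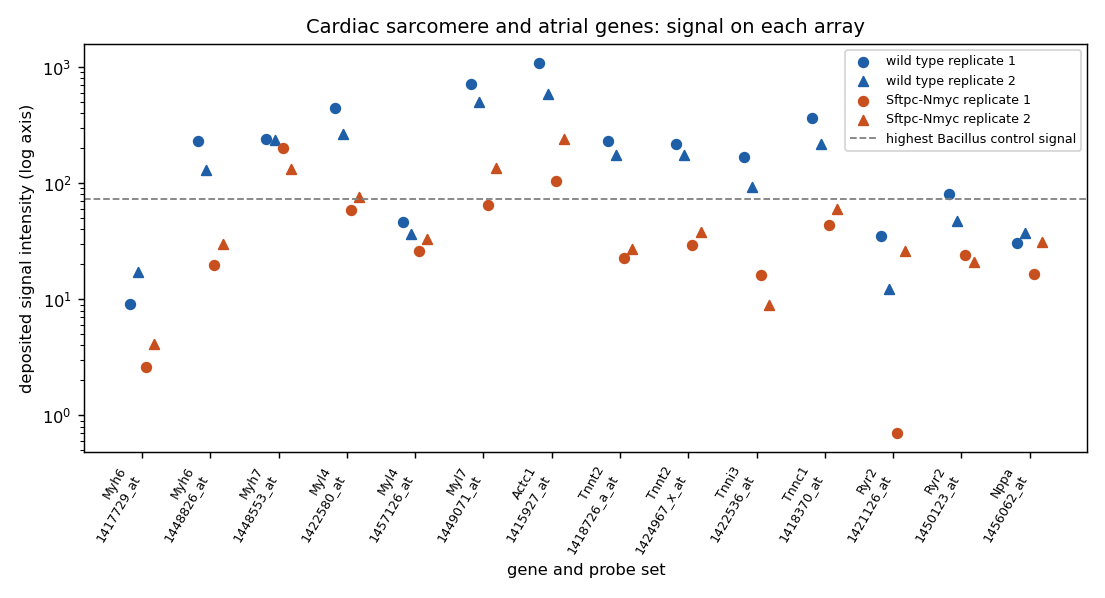
Deposited signal intensity (log axis) of each of the 14 probe sets of the 10 genes on each of the 4 arrays, with the highest Bacillus control signal as a dashed line. In 12 of 14 probe sets both transgenic points lie below both wild-type points, while Nppa and 1 Ryr2 probe set overlap.

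Over the 10 genes the median log2 difference was -2.31, against -0.03 over all 12393 genes measured. The groups did not overlap, with transgenic lower, in 12 of 14 probe sets, where 29.4% of 20380 probe sets with 1 symbol did the same. Counted by gene this was 9 of 10, against 31.0% of all genes measured. Since this comparison chose the list, nothing is read from these counts. In whole lung, fewer heart muscle cells, less RNA per such cell and less attached heart tissue cannot be told apart. Sex, which ran with genotype, cannot be separated from the difference either. The median was -1.90 without wild-type replicate 1 and -2.64 without wild-type replicate 2.

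The list was chosen on the difference between groups, not on that between lungs of the same genotype. The arrays are the same, however, and a high wild-type replicate 1 adds to the fall that chose the list. In wild type, replicate 1 exceeded replicate 2 by at least 0.5 on the log2 scale in 7 of 10 members, against 10.9% of all genes measured. The differences were 0.93 for Actc1, 0.80 for Tnni3 and Myh6, 0.75 for Tnnc1, 0.73 for Myl4, 0.67 for Ryr2 and 0.54 for Myl7. Tnnt2 followed at 0.28. Myh7 did not share the pattern, at 0.03, and dim Nppa went the other way, at -0.33. The summed signal of the 10 genes was 3578.9 in wild-type replicate 1 and 2286.7 in replicate 2. The median over all genes tested was 0.0045, but quantile normalization gives all arrays the same distribution, so that median cannot show a difference of the whole array. Sums for endothelial genes (10058 and 10837) and smooth muscle genes (5341.5 and 5502.5) were slightly higher in replicate 2, so those lists did not share the members' order. With 1 pair of lungs this is a description, and the genes are not separate observations of it.

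In the transgenic pair the members were less uniform. Replicate 2 exceeded replicate 1 by at least 0.5 in 3 of 10 members, Actc1 (1.14), Myl7 (0.97) and Nppa (0.64), against 10.2% of all genes measured. Myh6, Tnnc1, Myl4 and Tnnt2 were also higher in replicate 2, by 0.23 to 0.40, whereas Tnni3 (-0.72), Myh7 (-0.59) and Ryr2 (-0.27) were higher in replicate 1. Many of these signals were below the Bacillus guide, so their order is uncertain.

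**Figure D2:**
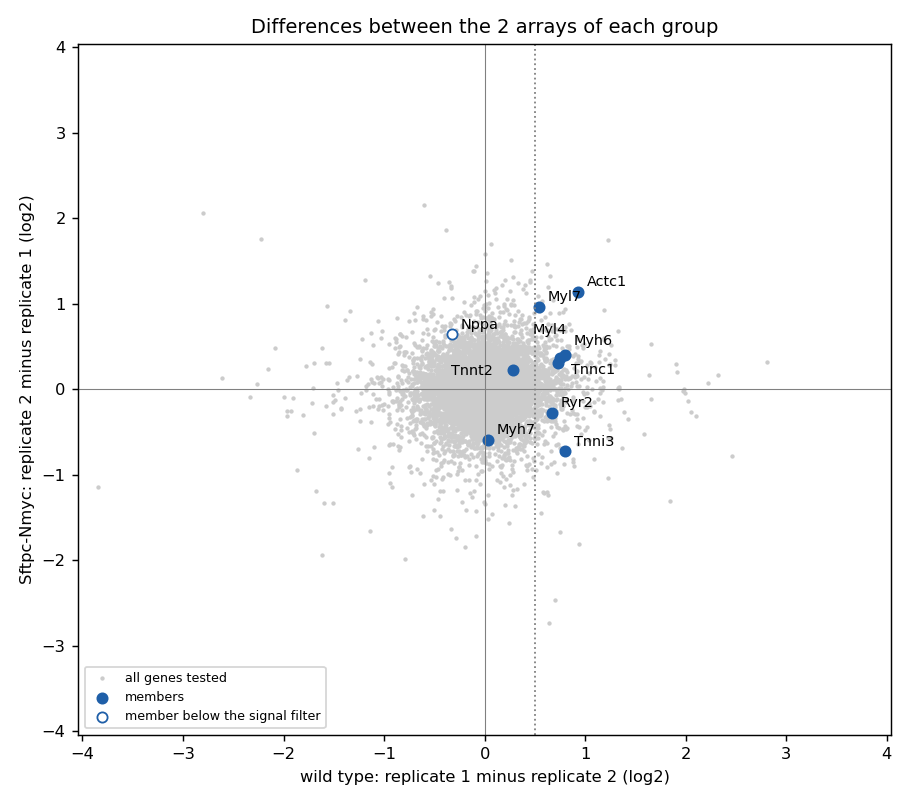
Difference between the arrays of each group on the log2 scale, wild-type replicate 1 minus 2 on the x axis and transgenic replicate 2 minus 1 on the y axis, for the 10 members (open circle, Nppa, below the signal filter) and all 8675 genes tested (grey). The dotted line marks 0.5, past which 7 members lie on the x axis, and Myh7 lies near 0 there.

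Genes of other muscle types were measured beside the members. All 4 ventricular genes checked (Myl2, Myl3, Irx4 and Hey2) were below the Bacillus guide on every array, with 32.8 as their highest signal. Their summed signal was 65.9 to 66.1 in wild type and 53.8 to 73 in transgenic lungs, and none of the 4 was at 0. The member Myh7, the heavy chain of the fetal ventricle, is not on that list. It was above the guide on every array, at 240 and 234.1 against 200.5 and 131.8. Of 20 skeletal muscle genes measured, 19 were at or below the guide on every array, and Casq1 reached 75.8. Over all 12393 genes measured, 4618 were so. Sums of the skeletal muscle genes were 373.9 to 406.8 in wild type and 174.8 to 275.6 in transgenic lungs. Of 11 further atrial genes, 5 were tested and 3 of those fell (Dkk3, at -1.36 ± 0.17, Tbx5 and Pam), against 15.7% lower over all genes tested. Several of these are also made by lung mesenchyme, and Nr2f2, at -0.20 ± 0.16, did not pass (limma adjusted p = 0.38). Sarcolipin (Sln), an atrial regulator of the calcium pump named after its values were seen, was too dim to be tested, at 95.3 and 28.4 in wild type and 3 and 8.9 in transgenic lungs. Of the 11 genes measured, 7 lay lower without overlap, against 31.0% of all genes measured. Untested Kcna5 lay higher, at 7 and 4.5 against 12.2 and 8. Kcnj3 (0.19 ± 0.22) did not pass, and dim Kcnj5 overlapped.

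**Figure D3:**
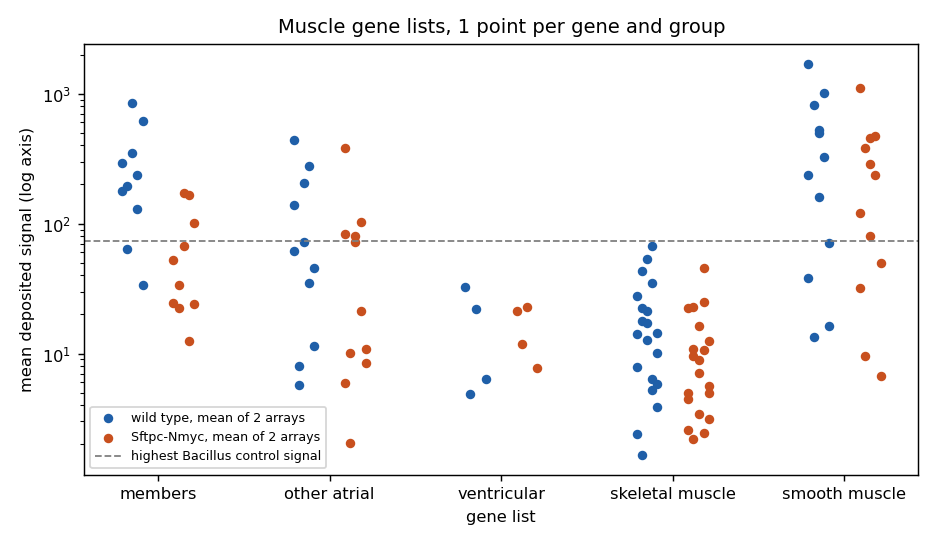
Mean deposited signal per group (log axis, mean of 2 arrays) for each measured gene of 5 muscle lists, with the highest Bacillus control signal as a dashed line. The 4 ventricular genes and all 20 skeletal muscle genes lie below the line in both groups, while 8 of 10 members lie above it in wild type.

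Other genes of heart muscle, grouped by role, were lower in part. Of 104 such genes on 6 lists, 96 were measured and 59 passed the signal filter. That filter used the mean over all 4 arrays, so some genes passed it only through their wild-type signal. Tnni1 (9 and 21.4 in transgenic lungs) and Pgam2 (8.2 and 4.1) are examples. Such genes could hardly be called other than lower, and their part in the counts below was not separated. In limma's test over 8675 genes, 27 of the 59 fell and 1 rose, where 15.7% of all genes fell and 14.7% rose at an adjusted p under 0.05. Their median log2 difference was -0.57, against -0.02 over all genes tested. With no filter on low signals, 24 of the 96 fell and 0 rose, where 1043 of all 12393 genes fell and 1026 rose. Leaving out single arrays lowered the 27 to 14 (wild-type replicate 1), 13 (wild-type replicate 2) or 18 (transgenic replicate 2). The share of all tested genes that fell dropped with it, to 8.84%, 7.71% and 10.5%. Many of these genes are also active in smooth muscle, fibroblasts or epithelium, so the lists are wider than heart muscle.

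Of 12 further sarcomere genes tested, 8 fell, against 15.7% of all genes tested, and none rose. Their median was -0.86. Tnni1, the troponin I that fetal heart uses before Tnni3, gave 139.8 and 112.6 in wild type and 9 and 21.4 in transgenic lungs, and fell by 2.70 ± 0.34 (limma adjusted p = 0.0013). Its transgenic signals were far below the Bacillus guide, and with an offset of 20 the difference was -2.04. Cryab, a small heat shock protein that protects desmin and titin and is also made in other lung cells, gave 635.2 and 688.3 against 107.7 and 75.4, and fell by 2.80 ± 0.19 (limma adjusted p = 0.000184). With the mean over its probe sets Cryab stood at -1.86 (limma adjusted p = 0.00198). Tnni1 and Cryab kept their call without any 1 array, and neither pair of groups overlapped. Mybpc3, cardiac myosin-binding protein C, gave 260.1 and 214.2 against 121.1 and 142.5 and fell by 0.82 ± 0.18. Nebl, a nebulin-like Z-disc protein, fell by 1.69 ± 0.33, Tpm1, alpha tropomyosin, fell by 0.73 ± 0.21 and Pdlim5, a Z-disc adaptor, fell by 0.61 ± 0.17. These 4 calls ended when 1 of certain arrays was left out, at limma adjusted p of 0.0517 to 0.0698 for Mybpc3 (wild-type or transgenic replicate 1), 0.0576 to 0.0581 for Nebl (either wild-type array), 0.0734 to 0.154 for Tpm1 (wild-type replicate 2 or either transgenic array) and 0.0818 to 0.16 for Pdlim5 (either wild-type array, or transgenic replicate 2). Leaving out wild-type replicate 1 left 4 that fell, and leaving out replicate 2 left 5. Titin (Ttn) and the muscle LIM protein Csrp3, named after their values were seen, also fell, and both stood higher in wild-type replicate 1. On the further sarcomere list 5 of 20 genes measured exceeded 0.5 in that direction, against 10.9% of all genes. Over all the further cardiac lists, which are wider than heart muscle, 9 of 96 did so. Tpm1 (-0.67) and desmin, Des (-1.12), were higher in replicate 2. Ttn gave 139.6 and 58.5 against 12.1 and 30.2, and Csrp3 gave 172.4 and 97.9 against 34.3 and 53.2. Both calls ended without wild-type replicate 1, and that of Ttn also without transgenic replicate 1 (limma adjusted p = 0.0715 to 0.147 for Ttn and 0.074 for Csrp3).

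Calcium handling and excitation genes fell in 2 of 7 tested, against 15.7% of all genes tested, with none higher and a median of -0.38. With so few genes this count is not read as a result about the list. Of 19 measured, 12 were too dim to test. Jph2, which ties the cell membrane to the calcium store, fell by 1.30 ± 0.29, but did not pass once wild-type replicate 2 was removed (-1.09, limma adjusted p = 0.106). Atp2a2, the calcium pump of heart and many other cells, gave 891.4 and 952.6 against 760.6 and 662.1 and fell by 0.40 ± 0.13. That call ended whichever array was left out (limma adjusted p = 0.0544 to 0.194), so the list's count lay between 0 and 1 with any 1 array removed. With the mean over its probe sets Atp2a2 stood at -0.94 (limma adjusted p = 0.00654). With no filter on low signals, 4 genes of the list fell. Kcnq1, a potassium channel, and Hrc, a calcium-binding protein of the store, did not pass, at -0.35 ± 0.20 and -0.59 ± 0.24. Casq2, the cardiac calcium buffer of the store, was too dim to be tested and is named after its values were seen, at 94.4 and 37.6 in wild type and 3.9 and 10 in transgenic lungs. Of the 19 genes measured, 11 lay lower without overlap, against 31.0% of all genes measured. Pln (25 and 24.9 against 29.3 and 30.5) and Kcna5 (7 and 4.5 against 12.2 and 8), also untested, lay higher.

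In the natriuretic peptide system 3 of 4 tested genes fell, against 15.7% of all genes tested, and none rose. The median was -0.63. Npr3, the clearance receptor, gave 416.4 and 526.3 against 178.3 and 97.7, and fell by 1.79 ± 0.27 (limma adjusted p = 0.0026), which held without any 1 array. Npr2, the receptor for C-type natriuretic peptide, and Pam, a membrane enzyme of atrial granules and other secretory cells, both fell, with log2 differences of -0.57 ± 0.18 and -0.69 ± 0.19. Those calls ended without either wild-type array, and without transgenic replicate 2 for Npr2 (limma adjusted p = 0.114 to 0.221) or transgenic replicate 1 for Pam (0.0855 to 0.138). With either wild-type array removed, 1 gene of the list fell. Nppb, the B-type peptide gene next to Nppa, gave 65.7 and 50.9 against 54.9 and 100.4 and did not pass (0.41 ± 0.29).

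Transcription factors of the heart fell in 5 of 12 tested, against 15.7% of all genes tested, with none higher and a median of -0.29. Tbx5, an atrial and septal factor that lung mesenchyme also uses, gave 216.4 and 196.3 against 51.7 and 93.7, and fell by 1.46 ± 0.25 (limma adjusted p = 0.0044). Tbx3, a factor of the conduction system and also of lung mesenchyme, fell by 1.59 ± 0.19 and Mef2a, an activator of muscle genes, fell by 0.96 ± 0.14. These 3 calls held without any 1 array, although Tbx3 did not pass with the mean over its probe sets (-0.78, limma adjusted p = 0.0576). Hopx, a cofactor in heart and in alveolar type I cells, fell by 0.59 ± 0.15, and removing either wild-type array, or transgenic replicate 2, ended its call (limma adjusted p = 0.0542 to 0.147). Each of these 3 removals left 3 genes of the list that fell. Gata6 and Srf did not pass, at -0.11 ± 0.15 and 0.05 ± 0.16. The cardiac factors Nkx2-5 (-0.33 ± 0.31) and Gata4 (-0.12 ± 0.32), outside the naming rule, did not pass either.

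Junction and membrane genes went both ways, with 4 of 11 lower and 1 higher, against 15.7% and 14.7% of all genes tested. Their median was -0.38. Vcl, vinculin, fell by 0.60 ± 0.13, Jup, plakoglobin, fell by 0.63 ± 0.16 and Itga7, a laminin receptor of muscle, fell by 0.90 ± 0.18. Dsg2, a desmosomal cadherin that epithelium shares with heart, rose by 1.22 ± 0.28, from 94 and 48.2 to 169.2 and 155.9. Each of these calls ended when wild-type replicate 2 was removed (limma adjusted p from 0.0505 for Dsg2 to 0.119 for Jup). Those of Vcl, Jup and Dsg2 ended without some other array too, and the genes that fell then numbered 0, or 2 with wild-type replicate 1 and 1 with transgenic replicate 2 removed. Gja1, connexin 43, and Dsp, desmoplakin, did not pass, at -0.04 ± 0.14 and 0.32 ± 0.17. Dsp stood at -0.01 with the mean over its probe sets.

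Energy genes of striated muscle fell in 5 of 13 tested, against 15.7% of all genes tested, with none higher and a median of -0.38. Pgam2, the muscle phosphoglycerate mutase, gave 147.2 and 179 against 8.2 and 4.1, and fell by 3.87 ± 0.34 (limma adjusted p = 0.000415). Its transgenic signals were far below the Bacillus guide, and with an offset of 20 the difference was -2.78. Ckm, muscle creatine kinase, gave 215.4 and 176 against 73.1 and 60.9, and fell by 1.45 ± 0.19 (limma adjusted p = 0.0017), and Cd36, a fatty acid transporter also abundant in capillaries, fell by 1.66 ± 0.24. These 3 held without any 1 array. Slc25a4, the mitochondrial ADP/ATP carrier, and the fatty acid genes Acadm and Lpl did not pass, at -0.04 ± 0.11, -0.16 ± 0.13 and -0.58 ± 0.26. Lpl passed without transgenic replicate 1 (-1.03, limma adjusted p = 0.00892). Removing wild-type replicate 1 left 3 that fell.

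**Figure D4:**
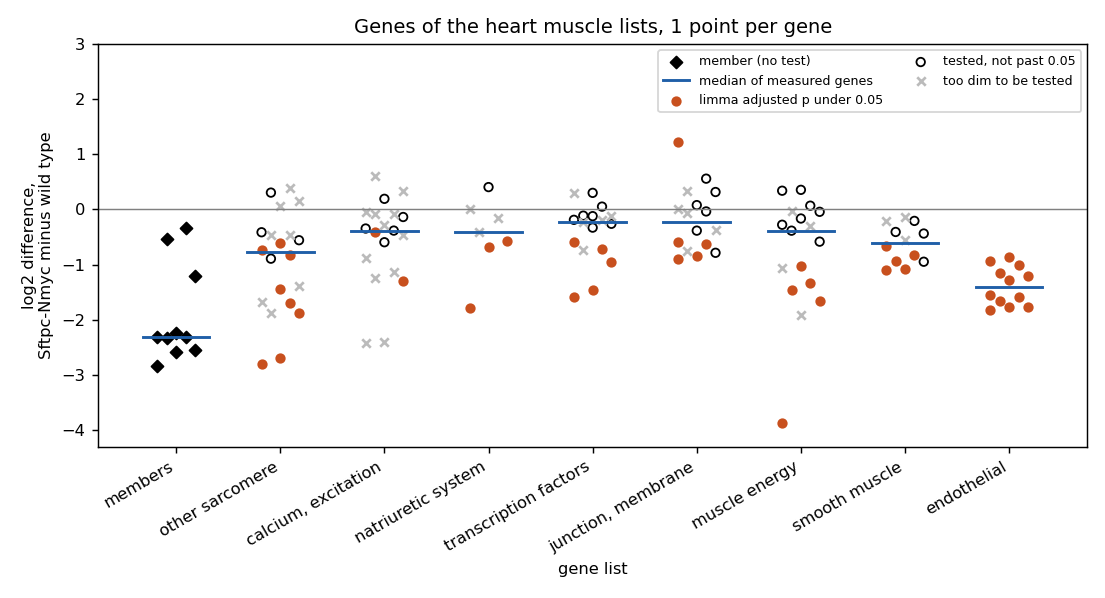
Log2 difference, transgenic minus wild type, of each measured gene in the members' list and 8 other lists, with the median of measured genes as a bar. Members (diamonds) carry no test, filled circles passed limma's test, open circles did not, and crosses mark genes too dim to test. Of the members, 7 lie between -2.84 and -2.24, and Ryr2, Myh7 and Nppa lie above them.

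Genes of other lung cell types also differed in this comparison, in which 15.7% of all genes tested fell and 14.7% rose. Of 8 lung epithelial genes 7 fell, with a median of -2.02 and sums of 28337 to 32123 in wild type and 8412.5 to 13304 in transgenic lungs. The surfactant genes Sftpc, Sftpb and Sftpa1 stood at -0.997, -2.85 and -3.18, Scgb1a1 of club cells at -1.58, and Ager and Aqp5 of type I cells at -1.59 and -4.35. The call for Scgb1a1 ended without either wild-type array (limma adjusted p = 0.084 to 0.115), and its difference was -0.88 without transgenic replicate 2. All 12 endothelial genes fell, with a median of -1.41, and in smooth muscle 5 of 9 tested fell and none rose, with a median of -0.82. Cdh5, the cadherin of endothelial junctions, gave 993.2 and 977.9 against 334.7 and 318.4, and fell by 1.59 ± 0.13 (limma adjusted p = 0.000365). Ramp2, Kdr, Esam, Cldn5 and Tie1, also of endothelium, stood at -1.27, -1.16, -1.82, -1.77 and -1.77. Mylk, the smooth muscle myosin kinase, fell by 1.10 ± 0.16 (limma adjusted p = 0.0025), while Acta2, smooth muscle actin, fell by 0.66 ± 0.16, which did not pass once either wild-type array, or transgenic replicate 1, was removed (limma adjusted p = 0.054 to 0.108). With the mean over its probe sets Acta2 stood at -0.08 (limma adjusted p = 0.816). The contractile genes Myl9 and Smtn fell, at -1.08 and -0.94, and Ppp1r14a, a phosphatase inhibitor, did not pass (-0.21 ± 0.15). Summed endothelial signal was 10058 to 10837 in wild type and 4053.4 to 4092.8 in transgenic lungs, and summed smooth muscle signal 5341.5 to 5502.5 and 2913.8 to 3575.7. Summed signal of the 10 cardiac genes was 2286.7 to 3578.9 and 577 to 770.9. In the list for mesothelium and epicardium 3 of 4 tested fell (Msln, Upk3b and Tcf21, at -2.14, -1.81 and -0.86) and Aldh1a2 did not pass (-0.91 ± 0.37), with sums of 3541.9 to 4574 and 1557.1 to 2247.5. Tcf21 no longer passed once wild-type replicate 2 was removed (limma adjusted p = 0.0971). The part of these cell types in the cardiac differences was not tested, and the difference between the cardiac list and these lists was not tested either. Few genes were checked for other tissues near the lung, and most gave little signal. Thymus genes were at or below the Bacillus guide on every array in 8 of 8 and cartilage genes in 5 of 6 (sums of 169.5 to 172.2 against 103.8 to 118.4, and 164.9 to 196.2 against 194.4 to 211.5). Of all 12393 genes measured, 4618 were so. Dntt of thymus (-0.63 ± 0.27) and Col9a1 (0.15 ± 0.26) and Acan (0.00142 ± 0.27) of cartilage did not pass, although Dntt passed with no variance trend (limma adjusted p = 0.0429). Oesophageal genes were so in 4 of 5, and Krt15 rose by 1.13 ± 0.29 (limma adjusted p = 0.0207), with sums of 97.3 to 147 against 210.3 to 277.5. That call ended without wild-type replicate 2 or transgenic replicate 1 (limma adjusted p = 0.107 to 0.135).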

How the data were processed

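The authors deposited 1 table of signal intensity values per probe set on a linear scale for 4 Affymetrix arrays. RNA was biotin-labelled total RNA of whole lung, per the labels' protocols. How signals were computed and scaled was not given in the sources used here. All 4 arrays share a trimmed mean of 150.0 to 150.2 per array. The platform annotation gave 1 symbol to 20380 probe sets, several to 691 and none to 1555 besides 64 controls, and 20351 matched RefSeq (GRCm38.p6) by gene identifier.

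Values were floored at 1, offset by 5, logged to base 2 and quantile normalized over non-control probe sets. Each gene was represented by its probe set with the highest mean, and genes under the 30th percentile of mean signal were left out, leaving 8675. Limma 3.58.1 in R 4.3.3 (lmFit, eBayes with trend) fitted group alone, with Benjamini-Hochberg adjustment over all genes tested and a threshold of 0.05. The code was tested on simulated data. Only 2 arrays per group limit the precision. The design text calls duplicates biological replicates.

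The members and lists were chosen with earlier results of these data known. Named were all members and, per list, the 4 tested genes with the highest mean signal and up to 3 with the largest moderated statistic. Others are marked. Alternatives covered normalization, offset, filter, probe set choice, variance model, replicate block and each array left out.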

Additional observations from a re-analysis of the deposited data

How the results depend on the processing

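The median member difference of -2.31 was -2.04 with an offset of 20 and -2.04 with the mean over probe sets, and ran from -2.64 to -1.90 with 1 array left out. By gene, Nppa then ran from -0.67 to -0.02, and Myh7 from -0.82 to -0.24. The count of 27 further cardiac genes that fell ran from 13 to 21, and the count of 2636 genes that differed from 1396 to 1917, with 1 array left out. Of 22 named genes on the heart muscle lists that passed, 8 passed under every alternative in which they were tested, as did 17 of 21 on the other lists. Deviations of same-numbered arrays correlated at -0.043 over genes. With 1 difference per group this cannot tell whether the numbers pair the arrays. With the replicate block, 22 further cardiac genes fell, 2218 genes differed and Aldh1a2 passed (limma adjusted p = 0.0315). With values as deposited Hopx did not pass (-0.34, limma adjusted p = 0.183). Signals under 73.4 limit every fold that rests on a transgenic level there.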

Other observations

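Several further genes of striated muscle lay below the signal filter and were not tested. They are named after their values were seen, and none supports a comparison. Actn2, the Z-disc alpha actinin, gave 81.7 and 36.8 in wild type and 13 and 8.3 in transgenic lungs. Smyd1, a muscle methyltransferase, gave 57.2 and 49 against 12.7 and 11.2, and Myom1, a protein of the M line, gave 49.5 and 31.2 against 10.7 and 10.8. Tnnt1, slow skeletal troponin T and the neighbour of Tnni3 on chromosome 7, gave 55.7 and 51.2 against 2.3 and 4.5. In each of these 4 genes both transgenic lungs lay below both wild-type lungs, but they were picked with those values known. That order held for 15 of 20 further sarcomere genes and 5 of 20 skeletal muscle genes measured, against 31.0% of all 12393 genes. Bmp10, an atrial growth factor, gave 77.6 in wild-type replicate 2 but 13.2 in replicate 1, opposite to the members' order.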
